A study of Rattus norvegicus with 59 samples.

Results

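The 5 livers labelled Cr 20 mg/kg Day 7 were set against the 5 livers labelled Cr Control Day 7, which together are 10 of the 59 livers of the series. The livers were chosen by label, and saline controls of other days were kept out of the difference. The exposed animals were male Sprague-Dawley rats given 1 intraperitoneal injection of sodium dichromate (Na2Cr2O7) in saline, and the controls were rats of the same sex and strain given sterile saline. Livers were taken 7 days after the injection, and the age of the animals is not given in the sources used here. The labels give the dose as 20 mg/kg, the high dose of the study. The methods state that the high Cr dose was taken for the arrays but also name a lower amount for them. The series also holds Cr livers of days 1 and 3 and livers of days 1, 3 and 7 after cadmium chloride (labelled Cd 1.25 mg/kg), each with saline controls of its day. Total RNA of each frozen liver was hybridised to its own Affymetrix rat genome array. Levels are log2 signals, and each difference is the exposed mean minus the control mean on that scale.

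Hexavalent chromium crosses cell membranes through anion transporters and is reduced inside the cell to trivalent chromium, with reactive intermediates formed on the way. Metallothioneins are small cysteine-rich proteins that bind zinc, copper and cadmium, and the zinc-sensing factor MTF-1 switches on their genes through metal response elements. Most hepatocytes of an adult rat are outside the cell cycle and can re-enter it after injury or loss of tissue.

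Hepatocyte markers were compared between the groups. All 10 of them were among the probe sets tested. Their mean deviation from the control average lay between -0.11 and 0.03 in exposed livers and between -0.09 and 0.06 in control livers. The deviation is taken from these controls, so it compares the groups and does not check that the tissue is liver. Defining markers of bile duct cells (Krt19, Krt7), neutrophils (S100a8), T cells (Cd3e) and fat cells (Adipoq, Plin1) were too dim to be tested. Between pairs of the 10 livers the correlation across probe sets lay between 0.974 and 0.994. Exposed livers 1 and 3 were the most alike of the 45 pairs, but their values were not identical. Exposed liver 2 stood apart, with a mean deviation of 1.50 for extracellular matrix genes and 1.98 for stellate cell markers. For the 3 fat cell markers tested it was 1.76. Of these 3, 2 were above the highest control liver there, with Fabp4 at 9.91, and 1 was below the lowest. The 3′ minus 5′ signal of the Gapdh array controls, which grows as RNA degrades, was 0.196 to 0.561 in exposed livers and 0.379 to 0.635 in control livers. The labels call the samples of a group biological replicates.

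Few probe sets differed at day 7. At an adjusted p of 0.05 or less and a change of 1.8-fold or more, 4 of the 15521 probe sets tested (0.0258%) rose in exposed livers and 17 (0.11%) fell, which makes 21 (0.135%). At any size of change 13 rose (0.0838%) and 26 fell (0.168%), which makes 39 (0.251%). The less strict criterion of an unadjusted p of 0.05 or less with a 1.8-fold change gave 63 higher (0.406%) and 48 lower (0.309%), which makes 111 (0.715%). The median difference over all probe sets tested was 0.02. Of the 21 probe sets, 12 carried a single gene symbol, and for 20 the exposed and control livers did not overlap, against 522 (3.36%) of all probe sets tested. The other 9 of the 21 had no gene symbol, and all 9 fell. Rises smaller than 1.8-fold passed for Zfp367 (0.73), Bex3 (0.71), Tceal9 (0.67), Gpatch4 (0.66), Pbx3 (0.48), Zfp955a (0.44), Tmem98 (0.40) and Zfp330 (0.33), and smaller falls for Fchsd2 (-0.39), Zswim1 (-0.62) and Irf2bpl (-0.64). Of these, Pbx3 encodes a homeobox partner of HOX proteins.

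**Figure D1:**
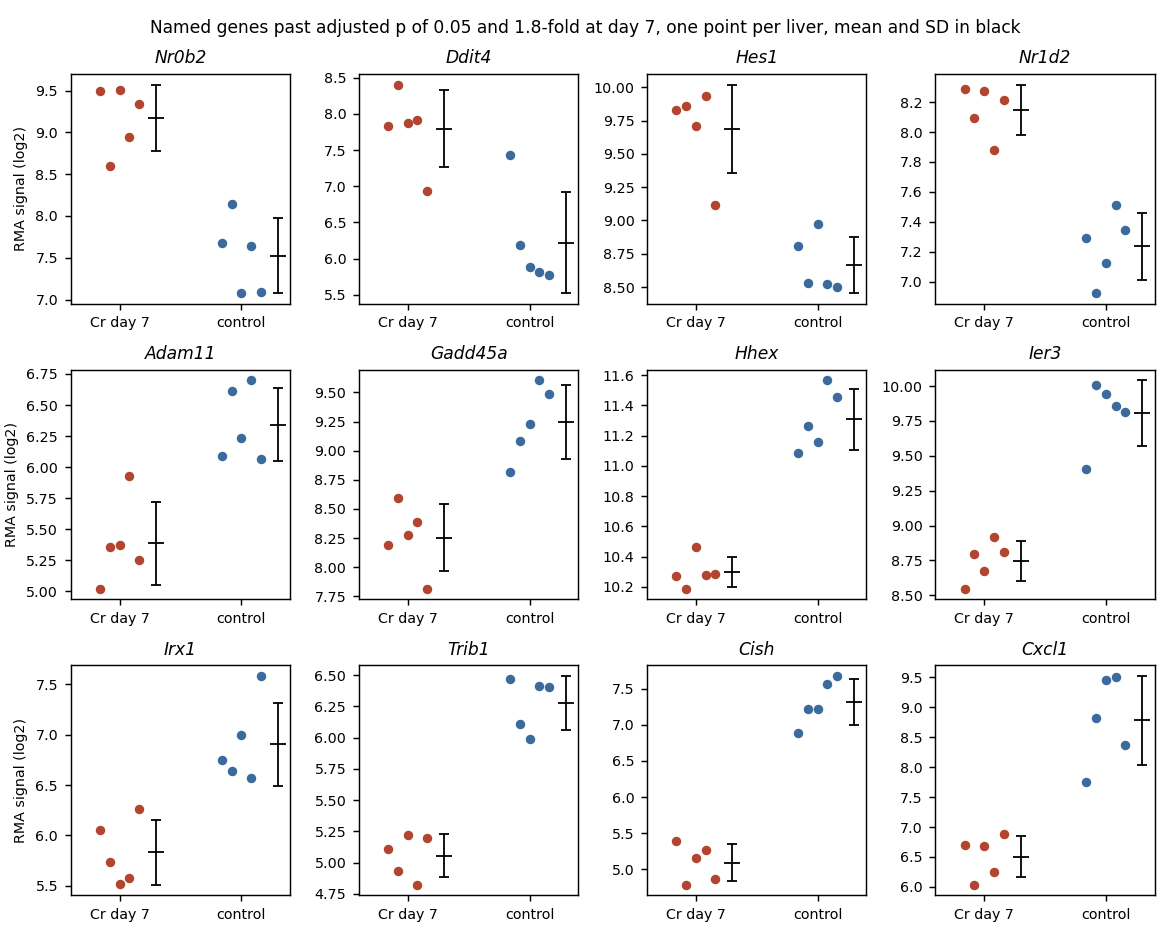
Log2 signal of the 12 genes that passed an adjusted p of 0.05 and a 1.8-fold change, in each exposed (left) and control (right) liver of day 7, with the group mean and SD. The groups are apart for every gene but Ddit4, where control liver 1 (7.44) lies above exposed liver 5 (6.93).

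The controls of day 7 were set beside the other saline controls. For 16 of the 21 probe sets the mean of these controls lay outside the range of the 5 other saline control groups of the series, against 5989 of all 15521. A call needs a large distance from these controls, which favours probe sets where they lie apart. The 16 is therefore not a test of the controls. The exposed mean lay within that range for 10 of the 21 and beyond it in the direction of the call for 11. Set against the 15 Cr controls of all 3 days, none of the 21 passed at an adjusted p, although all 21 kept their direction and an unadjusted p of 0.05 or less. With the Cr and Cd controls of day 7 in 1 group, 4 probe sets were called at the same thresholds, and 2 of these were among the 21. Why the control groups differed was not tested.

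Among the genes that rose, Nr0b2 encodes small heterodimer partner, a repressor of bile acid synthesis induced by the bile acid receptor FXR. Its signal was 9.49, 8.59, 9.51, 8.94 and 9.34 in exposed livers, against 7.68, 8.15, 7.08, 7.64 and 7.09 in control livers. All exposed livers were above all control livers, with a difference of 1.65 ± 0.29 (SE; adjusted p = 0.00769). Its exposed mean of 9.18 was just above the other saline control groups, whose means ran from 7.60 to 9.15. Ddit4, an inhibitor of mTORC1 induced by stress, was at 7.84, 8.41, 7.87, 7.92 and 6.93 in exposed livers and at 7.44, 6.19, 5.88, 5.82 and 5.78 in control livers. Control liver 1 stood well above the other controls for this gene, and the groups overlapped. The difference was 1.57 ± 0.29 (SE; adjusted p = 0.00906).

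Hes1 and Nr1d2, both transcriptional repressors, rose as well. Hes1, a target of Notch signalling, was at 9.83, 9.86, 9.71, 9.94 and 9.12 in exposed livers, against 8.81, 8.53, 8.97, 8.52 and 8.50 in control livers, a difference of 1.02 ± 0.21 (SE; adjusted p = 0.0279). Nr1d2 encodes the clock repressor REV-ERB beta. It was at 8.29, 8.09, 8.27, 7.88 and 8.21 in exposed livers and at 7.29, 6.92, 7.12, 7.51 and 7.35 in control livers, a difference of 0.91 ± 0.18 (SE; adjusted p = 0.0146). Neither gene had overlapping groups. Both exposed means nevertheless lay close to or within the range of the other saline control groups, which was 8.91 to 9.80 for Hes1 and 7.21 to 8.10 for Nr1d2. Of the 26 bile acid synthesis and transport genes tested, Nr0b2 was the only one past the adjusted threshold, and the median of the list was 0.00. Abcb4, the canalicular phospholipid exporter, was 0.44 higher at an unadjusted p.

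The deepest falls were those of Cxcl1 and Cish. Cxcl1, which encodes a chemokine that attracts neutrophils, was at 6.69, 6.04, 6.68, 6.25 and 6.88 in exposed livers, against 7.75, 8.82, 9.45, 9.50 and 8.37 in control livers. Every exposed liver was below every control liver, and the difference was -2.27 ± 0.39 (SE; adjusted p = 0.0063). The control mean of 8.78 was above the other saline control groups (6.71 to 7.54), and the exposed mean of 6.51 was slightly below them. Cish encodes a feedback inhibitor of cytokine and growth hormone signalling that STAT5 induces. It was at 5.40, 4.79, 5.16, 5.26 and 4.87 in exposed livers and at 6.88, 7.21, 7.22, 7.56 and 7.67 in control livers, a difference of -2.21 ± 0.46 (SE; adjusted p = 0.0279). No liver of one group reached the other for Cish. The means of the other saline control groups ran from 5.10 to 7.50, with the exposed mean at their lower end and the control mean within them.

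The 250 bases before the start of Cish are shown because STAT5 binds sites of the form TTCNNNGAA, and Cish is known from mouse as a STAT5 target with such sites near its start. The sequence is from RefSeq (GRCr8, chr8:116850719-116850968, plus strand), and capitals mark the 4 matches on either strand. A count that high was found in 0.00598% of the 33469 windows of this length, while 7.67% held at least 1 match. A match is a description of the letters and not a site shown to be bound.
Cish: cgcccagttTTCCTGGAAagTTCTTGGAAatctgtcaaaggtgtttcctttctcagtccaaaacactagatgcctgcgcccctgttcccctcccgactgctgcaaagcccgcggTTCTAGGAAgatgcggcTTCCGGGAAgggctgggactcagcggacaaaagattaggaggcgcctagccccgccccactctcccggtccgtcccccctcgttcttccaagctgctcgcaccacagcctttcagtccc

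The other genes of growth hormone and STAT5 signalling did not follow Cish. Of 18 tested, Cish alone passed the adjusted threshold, 1 further gene was lower at an unadjusted p, and none was higher. That gene was Igfals, which encodes the acid-labile subunit of the circulating IGF complex, with a difference of -0.24 (adjusted p = 0.399). The median of the list was 0.03.

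Among the falls of 1.8-fold or more were 3 genes of transcription factors or signalling scaffolds. Trib1, a pseudokinase that directs proteins to COP1 for degradation, had the smallest p of the genes named. It was at 5.11, 4.93, 5.22, 4.83 and 5.20 in exposed livers and at 6.47, 6.11, 5.99, 6.42 and 6.41 in control livers, a difference of -1.22 ± 0.20 (SE; adjusted p = 0.0032). The homeobox gene Hhex, needed for liver development, was at 10.27, 10.19, 10.47, 10.28 and 10.29 in exposed livers, against 11.09, 11.27, 11.16, 11.57 and 11.46 in control livers. The groups were well apart and tight, with a difference of -1.01 ± 0.18 (SE; adjusted p = 0.00769). Irx1, another homeobox gene, was at 6.05, 5.73, 5.52, 5.58 and 6.26 in exposed livers and at 6.75, 6.64, 6.99, 6.57 and 7.59 in control livers, a difference of -1.08 ± 0.20 (SE; adjusted p = 0.0125). Adam11, a member of the ADAM family without a protease active site, averaged 5.39 ± 0.33 in exposed livers and 6.34 ± 0.30 in control livers (SD, n = 5 each) and fell by 0.95 (adjusted p = 0.0222).

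Genes of the early response to stress and growth signals were lower together in exposed livers than in the controls of the day. Of 20 immediate early genes tested, 11 were lower at an unadjusted p and none was higher, against 4.24% lower and 6.86% higher among all probe sets tested. Their median was -0.53. Ier3, an early response gene that modulates cell death, was the only one past the adjusted threshold: it was at 8.55, 8.79, 8.67, 8.92 and 8.81 in exposed livers and at 9.41, 10.01, 9.94, 9.86 and 9.82 in control livers, a difference of -1.06 ± 0.22 (SE; adjusted p = 0.0283). Ccn1, a secreted matricellular protein, was at 5.74, 6.01, 5.29, 6.14 and 5.64 in exposed livers, against 7.25, 6.57, 7.09, 6.59 and 6.70 in control livers (-1.07, adjusted p = 0.0703). The AP-1 genes Jun (-0.91), Junb (-0.49) and Fos (-1.44), the growth regulators Myc (-0.98) and Egr1 (-0.91), and the MAP kinase phosphatases Dusp1 (-0.67) and Dusp6 (-0.71) were also lower, at adjusted p between 0.239 and 0.39. Fos spread widely among exposed livers, with 3.88 and 3.79 in livers 1 and 3 and 6.58 in liver 2, and reached into the control range of 5.73 to 6.86. Against the pooled Cr controls 6 of the 20 were lower at an unadjusted p. In mean deviation from the day 7 controls, exposed livers lay at -0.69 to -0.30 on this list. Cr controls of days 1 and 3 lay at -0.72 to -0.04 and -0.59 to -0.15. The exposed mean was within the other saline control groups for 13 of the 20, and the day 7 control mean outside them for 10. For Ier3 the exposed mean of 8.75 was within those groups (8.72 to 9.41) and the control mean of 9.81 above them.

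The growth arrest genes Gadd45a and Gadd45g had the same direction. Gadd45a was at 8.19, 8.59, 8.28, 8.39 and 7.81 in exposed livers and at 8.81, 9.08, 9.23, 9.60 and 9.49 in control livers. The groups did not overlap, and the difference of -0.99 ± 0.22 (SE) was at the edge of the threshold (adjusted p = 0.0483). Gadd45g was just past that edge (adjusted p = 0.0501) despite a larger difference of -2.18: it was at 7.68, 7.58, 7.47, 7.65 and 7.14 in exposed livers and at 8.72, 9.90, 10.15, 9.89 and 9.78 in control livers. Control liver 1 was the lowest control for Gadd45g and still above all exposed livers. For Gadd45a the exposed mean of 8.25 was within the other saline control groups (8.23 to 8.80), and the control mean of 9.24 was above them. Of the 18 p53 targets tested, Gadd45a was the only one past the adjusted threshold. At an unadjusted p, Tp53inp1 (0.61) and the death receptor gene Fas (0.48) were higher and Plk2 (-0.54), Sesn2 (-0.29) and Phlda3 (-0.47) lower, so the list had no single direction.

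Of 19 clock genes tested, Nr1d2 was higher and 8 were lower at an unadjusted p (6.86% and 4.24% of all probe sets tested), and the median was -0.19. Per2, a repressor of the core loop, was at 7.77, 7.66, 7.72, 8.13 and 8.27 in exposed livers and at 8.43, 9.10, 8.79, 8.78 and 8.79 in control livers (-0.87, adjusted p = 0.0601). Its partner Cry1 (-0.63, adjusted p = 0.145), the repressors Bhlhe40 (-1.01, adjusted p = 0.128) and Nfil3 (-0.56, adjusted p = 0.0997), and Hlf (-0.48), Cry2 (-0.29), Por (-0.30) and Usp2 (-0.34) were lower too. For Per2, Bhlhe40 and Nfil3 no exposed liver reached the lowest control. Against the pooled Cr controls 1 of the 19 was higher and 4 were lower at an unadjusted p, with a median of -0.09. In mean deviation from the day 7 controls, exposed livers lay at -0.27 to -0.10 on this list. Cr controls of days 1 and 3 lay at -0.19 to 0.01 and -0.22 to -0.16. The exposed mean was within the other saline control groups for 10 of the 19, and the day 7 control mean outside them for 11.

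**Figure D2:**
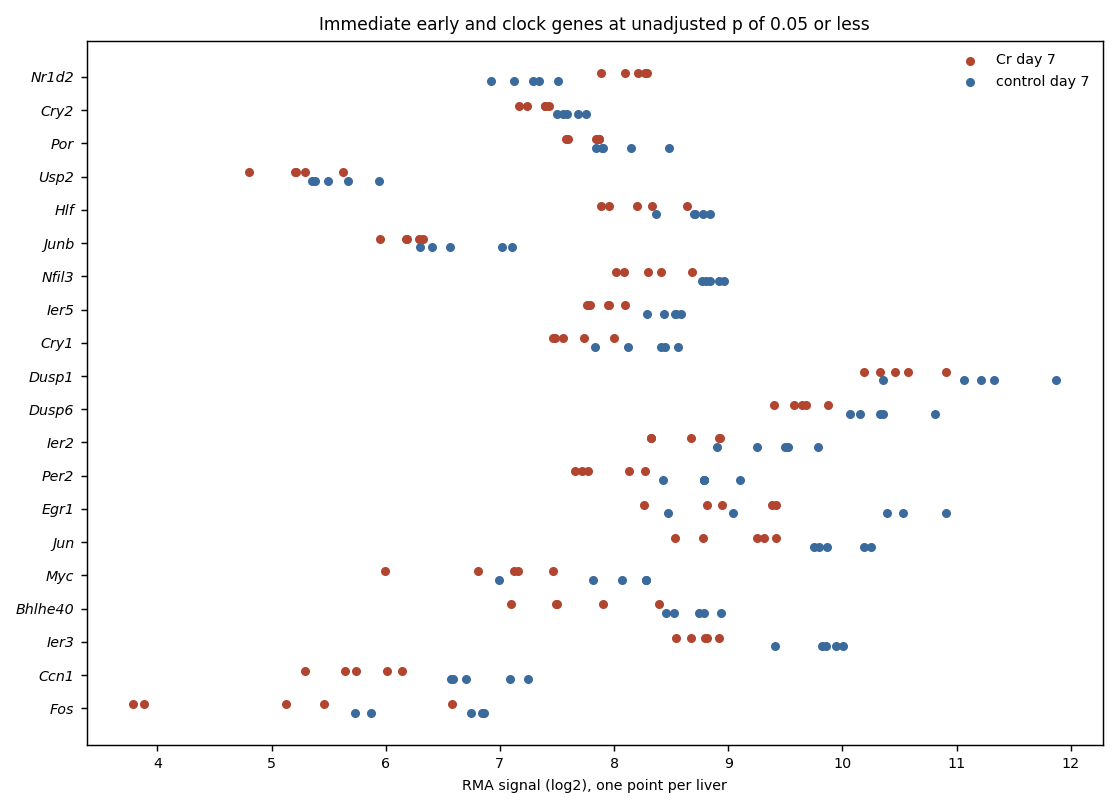
Log2 signal of the 20 immediate early and clock genes with an unadjusted p of 0.05 or less, in each liver of day 7, with exposed livers as the upper and control livers as the lower points of each gene. Nr1d2 is the only one of the 20 that is higher in exposed livers.

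Of 16 chemokine and cytokine genes tested, 6 were lower at an unadjusted p (4.24% of all probe sets tested), none was higher, and Cxcl1 alone passed the adjusted threshold. Cxcl9, a T cell attractant, was 0.82 lower and Ccl5 0.66 lower, with adjusted p of 0.19 and 0.239. Il1a and Il1b, both forms of interleukin-1, and Ccl6 were lower by 0.28 to 0.45. Without exposed liver 3 the 6 became 2. The cytotoxic granule genes Prf1 (-0.43) and Gzma (-0.32), the only T and NK cell markers bright enough to be tested, were both lower at an unadjusted p, and neither was without exposed liver 3. Their part in the chemokine values was not tested. Kupffer cells, the resident macrophages of the liver, were followed through 8 markers. At an unadjusted p 4 were lower and none was higher (4.24% and 6.86% of all probe sets tested). Clec4f, which in rodents marks Kupffer cells, was at 10.35, 10.01, 9.51, 10.46 and 10.14 in exposed livers, against 10.58, 10.60, 10.53, 10.50 and 10.59 in control livers (-0.47, adjusted p = 0.111). The mean deviation of the 8 markers was -0.90 in exposed liver 3 and between -0.21 and 0.08 in the 4 other exposed livers, against -0.08 to 0.08 in control livers. Without exposed liver 3, 1 of the 8 was lower at an unadjusted p, without control liver 1, 2 were, and without exposed liver 2, 7 were. In whole liver, fewer cells of a type and less RNA per cell cannot be told apart.

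Metallothionein signals were far higher in exposed livers without passing the adjusted threshold. Mt2A was at 10.19, 10.45, 10.04, 9.24 and 10.28 in exposed livers and at 8.36, 8.12, 8.50, 7.997 and 8.39 in control livers. The difference was 1.77 ± 0.46 (SE; adjusted p = 0.0893), with no overlap. The probe set that carries the symbols Mt1f, Ttr and Mt1 together, and so names no single gene, was at 11.82, 11.82, 11.78, 11.08 and 12.06 in exposed livers, against 9.50, 8.87, 9.30, 7.79 and 9.05 in control livers (2.81 ± 0.67 SE, adjusted p = 0.0676). Exposed liver 4 was the lowest exposed liver on both probe sets. The 5 other saline control groups had means of 8.18 to 8.72 for Mt2A, which take in the controls of the day, and of 9.19 to 10.25 for the shared probe set, which lie above them. Against the pooled Cr controls the difference of Mt2A was 1.60. Of the 19 metallothionein and zinc transport genes tested, 2 others were higher at an unadjusted p, the zinc exporters Slc30a5 (0.14) and Slc30a4 (0.15), and the median of the list was 0.06.

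The sequences before Mt1 and Mt2A are shown because metal response elements lie close to the start of metallothionein genes. The search used the loose pattern TGCNCNC, and a match is not a site shown to be bound. Both are 250 bases from RefSeq (GRCr8), on the minus strand of chromosome 19, at chr19:10832976-10833225 for Mt1 and chr19:10838709-10838958 for Mt2A. Capitals mark this pattern on either strand. Mt1 had 7 matches and Mt2A had 5. At least 1 match was found in 43.4% of all windows, but as many as in Mt1 in 0.0598% and as many as in Mt2A in 0.37%.
Mt1: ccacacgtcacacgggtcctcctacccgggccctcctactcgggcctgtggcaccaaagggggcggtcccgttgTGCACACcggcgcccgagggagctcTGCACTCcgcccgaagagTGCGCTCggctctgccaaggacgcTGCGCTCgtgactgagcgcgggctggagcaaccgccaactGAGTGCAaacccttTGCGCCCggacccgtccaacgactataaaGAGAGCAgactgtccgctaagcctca
Mt2A: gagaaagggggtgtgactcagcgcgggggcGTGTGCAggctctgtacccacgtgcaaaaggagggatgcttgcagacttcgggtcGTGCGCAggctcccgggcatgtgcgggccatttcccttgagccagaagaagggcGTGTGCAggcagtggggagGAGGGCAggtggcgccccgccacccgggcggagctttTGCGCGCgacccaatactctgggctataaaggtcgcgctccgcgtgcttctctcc

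The broadest pattern of the comparison lay in genes of G2 phase and mitosis. Of 28 tested, 27 were higher in exposed livers at an unadjusted p and none was lower, against 6.86% of all probe sets tested, but none passed the adjusted threshold. The median was 1.14, with a range from 0.41 for the mitotic kinase gene Plk1 to 1.62 for Ect2, which encodes a protein needed for cytokinesis. Ccnb1, the cyclin that drives entry into mitosis with Cdk1, was at 8.22, 7.99, 8.30, 7.18 and 6.98 in exposed livers and at 5.91, 6.95, 5.79, 4.93 and 7.49 in control livers (1.52 ± 0.37 SE, adjusted p = 0.0703). Control liver 5 lay above exposed livers 4 and 5, and control liver 4 was far below the rest. Ect2 had the same order, at 8.65, 8.64, 8.64, 7.40 and 7.29 in exposed livers, against 6.29, 7.08, 6.28, 5.06 and 7.78 in control livers (adjusted p = 0.0613). The spindle checkpoint kinase gene Bub1 came closest to the threshold with 1.42 (adjusted p = 0.0523). Ccna2 (1.51), Ccnb2 (1.54), Cdk1 (1.50), Cdc20 (1.48), Cdkn3 (1.58) and the proliferation marker Mki67 (1.42) were of like size.

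The livers fell into unequal parts on these genes. In each of exposed livers 1, 2 and 3, 27 of the 28 genes were above the highest control liver, whereas in each of exposed livers 4 and 5, 2 were. The mean deviation over the list was 1.53, 1.51, 1.49, 0.58 and 0.46 in exposed livers and -0.14, 0.38, -0.28, -0.80 and 0.84 in control livers. All 28 exposed means were within the range of the other saline control groups, and the day 7 control mean was outside that range for 26 of the 28. For Ccnb1 these groups averaged 7.32 to 8.55, against 7.73 in exposed livers and 6.21 in the controls of the day. Against the pooled Cr controls the median was 0.21 and none of the 28 was higher at an unadjusted p. The count was 26 or 27 whichever of the 10 livers was left out, and 27 with exposed livers 1 and 3 averaged into 1 replicate.

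**Figure D3:**
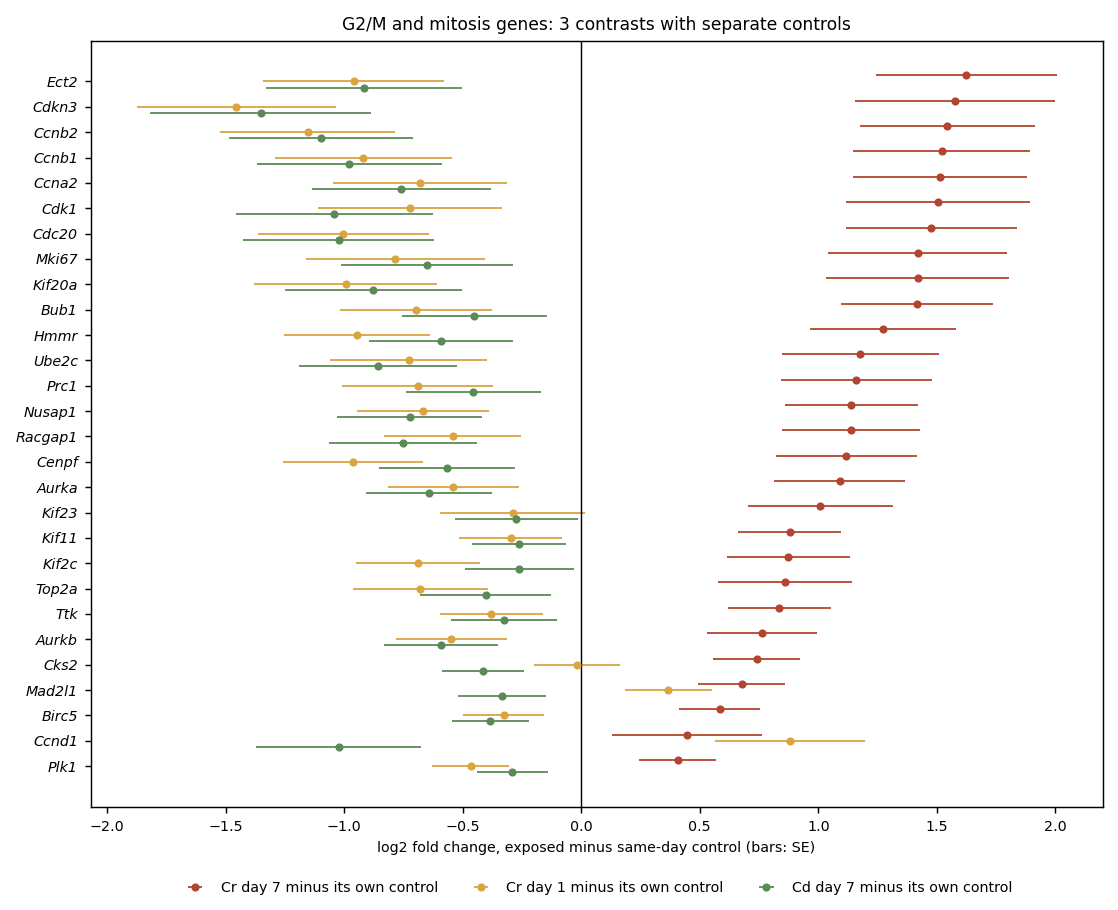
Log2 difference (exposed minus same-day control) with its SE for 28 genes of G2 phase and mitosis, for Cr day 7, Cr day 1 and Cd day 7. The Cr day 7 differences have a median of 1.14, against medians of -0.68 at Cr day 1 and -0.62 at Cd day 7. Each contrast has its own controls, and the Cr controls of days 1 and 7 differ in level on these genes.

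The window before Cdk1 is shown because many late cell cycle genes carry the element TTTGAA, at which the DREAM complex holds them silent in resting cells. The 250 bases are from RefSeq (GRCr8, chr20:19265043-19265292, plus strand), with the 2 matches on either strand in capitals. Of the 28 genes, 23 had a window and 12 of these (52.2%) held at least 1 match, against 16.2% of all windows.
Cdk1: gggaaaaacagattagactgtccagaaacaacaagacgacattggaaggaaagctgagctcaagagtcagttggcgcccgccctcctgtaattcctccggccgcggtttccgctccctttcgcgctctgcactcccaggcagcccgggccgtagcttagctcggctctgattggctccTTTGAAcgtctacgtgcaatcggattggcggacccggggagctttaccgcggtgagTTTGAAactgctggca

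Genes of the preceding phase were higher in smaller measure. Of 26 S phase and replication genes tested, 12 were higher at an unadjusted p (6.86% of all probe sets tested), none was lower, and the median was 0.27. Rrm1, the large subunit of ribonucleotide reductase, was at 7.80, 7.89, 7.88, 7.63 and 7.49 in exposed livers and at 7.13, 7.35, 7.08, 6.80 and 7.26 in control livers (0.61, adjusted p = 0.0754). The clamp loader gene Rfc4 (0.41) and the sliding clamp gene Pcna (0.28) also had no overlap between groups. With exposed livers 1 and 3 averaged, 8 of the 26 were higher at an unadjusted p, and against the pooled Cr controls none was. Against the same 6.86%, DNA repair genes gave 9 higher of 36, among them Fancd2 (0.45), Xrcc6 (0.29) and Lig1 (0.33), with a median of 0.08. Leaving out exposed liver 3 brought that count to 4, and averaging livers 1 and 3 brought it to 5. Against the pooled Cr controls it was 3. Of 43 ribosome biogenesis genes 10 were higher, such as Ppan (0.57) and Gnl3 (0.51), with a median of 0.14. When exposed liver 3 was left out 6 were higher, and against the pooled Cr controls 4 were. The exposed livers were unequal on these 43 genes. In livers 1 to 5, 32, 33, 36, 9 and 6 were above the highest control liver. Below the lowest control liver were 1, 0, 1, 11 and 4. None of these repair or ribosome genes passed the adjusted threshold.

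Amino acid synthesis genes of the integrated stress response, the programme that ATF4 drives, were high in 3 of the exposed livers. Of 30 genes tested, 9 were higher and 2 lower at an unadjusted p (6.86% and 4.24% of all probe sets tested), and the median was 0.14. Asns, asparagine synthetase, was at 7.16, 8.26, 7.27, 5.59 and 5.47 in exposed livers, against 7.01, 5.32, 5.00, 4.70 and 5.72 in control livers (1.20, adjusted p = 0.387). Exposed livers 1, 2 and 3 were high and livers 4 and 5 were not, and control liver 1 was high as well. The serine synthesis genes Phgdh (1.31) and Psat1 (1.09) had the same 3 high livers. Fgf21, a liver hormone of fasting and stress, was at 7.77, 9.54, 8.01, 7.58 and 4.94 in exposed livers and at 7.17, 5.89, 6.31, 5.57 and 6.44 in control livers (1.29, adjusted p = 0.418). Leaving out exposed liver 1, 2 or 3, or averaging livers 1 and 3, left 1 gene of the list higher at an unadjusted p, and leaving out control liver 2, 3 or 4 left 2, 3 and 3.

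Lists of liver metabolism genes had medians between -0.20 and 0.10, beside 0.02 for all probe sets tested. At an unadjusted p, 6.86% of all probe sets tested were higher and 4.24% lower. Of 26 genes of fatty acid and triglyceride synthesis, 5 were lower at an unadjusted p and none higher, including the lipogenic regulator Srebf1 (-0.44, adjusted p = 0.137), ATP citrate lyase Acly (-0.48) and the lipid droplet lipase Pnpla3 (-1.14), with a median of -0.13. Srebf1 was at 10.10, 9.83, 10.22, 10.36 and 10.31 in exposed livers and at 10.36, 10.54, 10.87, 10.62 and 10.65 in control livers. Fatty acid oxidation genes gave 5 higher and 1 lower of 26. The lower gene was Pdk4, a kinase that restrains pyruvate use, at 9.31, 9.17, 9.35, 9.38 and 9.74 in exposed livers, against 10.22, 10.12, 10.19, 9.78 and 9.90 in control livers (-0.65, adjusted p = 0.126). Cholesterol synthesis gave 2 lower of 21 (median -0.20), amino acid catabolism 1 higher and 5 lower of 38 (median -0.14) and glucose metabolism 1 higher and 2 lower of 23 (median 0.01). At any p, 19 of the 21 cholesterol synthesis genes were below 0 and 2 above. Of the 38 amino acid catabolism genes 31 were below 0 and 7 above. Oat, which breaks down ornithine, was 0.93 lower, with exposed livers 1 to 3 at 10.63 to 10.75 and all other livers of the day at 11.71 or above. The counts depended on single livers, with 2 lower amino acid catabolism genes without control liver 4 and 12 without exposed liver 5, and 2 higher fatty acid oxidation genes without control liver 3. None of these genes passed the adjusted threshold.

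Lists of detoxification, protein folding and respiration genes had medians between -0.01 and 0.12, beside 0.02 for all probe sets tested. The counts that follow are at an unadjusted p, where 6.86% of all probe sets tested were higher and 4.24% lower. NRF2 and glutathione genes gave 4 higher of 37 (median 0.12), led in size by the aldehyde dehydrogenase gene Aldh1a1, at 11.22, 11.18, 11.23, 8.61 and 9.97 in exposed livers and at 10.11, 9.06, 8.73, 8.79 and 9.96 in control livers (1.11, adjusted p = 0.32). Leaving out exposed liver 1 or 3 left 1 of these genes higher, and leaving out exposed liver 4 gave 9. At any p, 28 of the 37 were above 0 and 9 below, against 8814 and 6707 of all 15521 probe sets tested. Cytochromes P450 and xenobiotic receptors gave 2 higher and 3 lower of 37 (median -0.01), and hydroxysteroid dehydrogenases 1 higher and 1 lower of 16. Heat shock proteins gave 1 higher of 21, the unfolded protein response 1 higher and 1 lower of 30, oxidative phosphorylation 5 higher of 47, and iron and heme genes 2 lower of 23. Acute phase proteins gave 2 lower of 27, interferon response genes 1 higher and 3 lower of 29, and sex-biased liver genes 2 higher and 1 lower of 22. Of 18 glucocorticoid targets 2 were higher and 5 lower at an unadjusted p. Past the adjusted threshold Ddit4 rose and Gadd45a fell. Of the 18, 6 were above 0 and 12 below (median -0.05).

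Extracellular matrix genes were higher through 1 liver. Of 29 tested, 6 were higher and 1 lower at an unadjusted p (6.86% and 4.24% of all probe sets tested), with a median of 0.31. Without exposed liver 2 none of the 29 was higher. The count was 11 without exposed liver 1, 15 without exposed liver 3, and 3 without control liver 4 or 5. Col3a1, a collagen of connective tissue, reached 12.67 in that liver. Fabp4, the fat cell lipid carrier, was at 9.91 in exposed liver 2, and at 4.58 to 5.75 in the 4 other exposed livers, against 4.04 to 5.41 in control livers. In exposed liver 2 all 7 stellate cell markers tested and all 7 MHC class II genes tested were above the highest control liver. Of the 3 fat cell markers tested, 2 were above it there and 1 was below the lowest control liver.

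**Figure D4:**
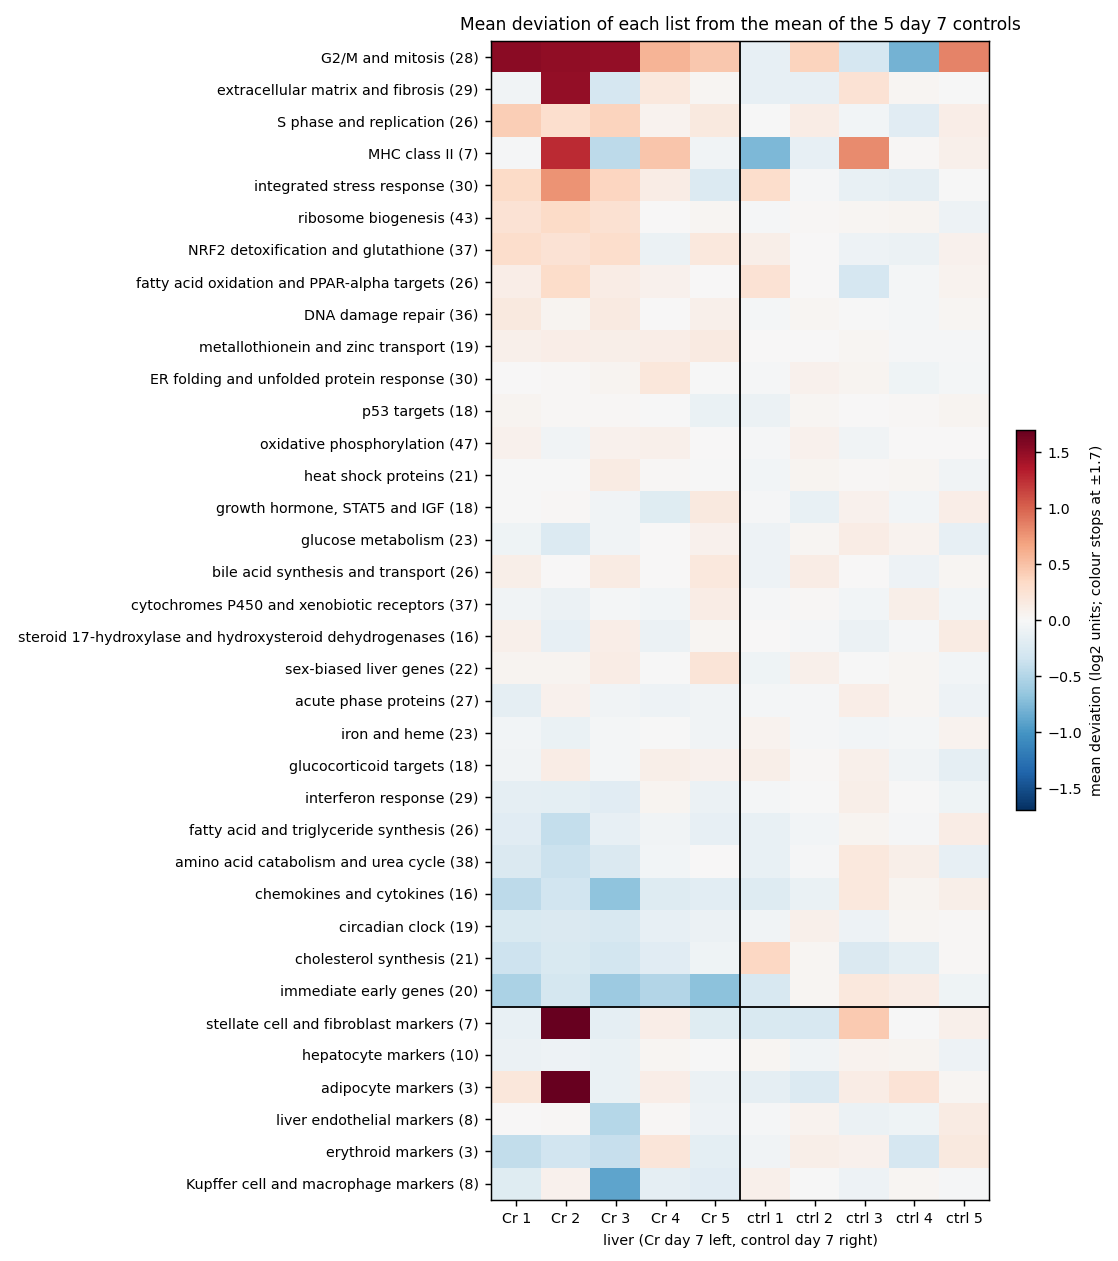
Mean deviation of each gene list from the average of the day 7 controls (log2), in each exposed (left) and control (right) liver of day 7. G2 and mitosis genes are high in exposed livers 1 to 3 (1.49 to 1.53), and matrix and stellate lists in exposed liver 2 (1.50 and 1.98).

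The study's own list of day 7 Cr genes was chosen on these samples, so its direction is not independent evidence. Of its 11 genes tested, 7 were higher and 4 lower at an unadjusted p, and 3 were higher without exposed liver 2. Nr0b2, Ddit4, Cxcl1 and Cish passed the adjusted threshold. Rgs3, a regulator of G protein signalling, was at 8.42, 8.28, 8.35, 7.84 and 7.74 in exposed livers and at 9.26, 8.94, 8.82, 9.41 and 9.88 in control livers (-1.13, adjusted p = 0.159). Sybu, a kinesin adaptor, was at 4.98, 5.25, 5.06, 5.23 and 6.41 in exposed livers, against 5.87, 6.12, 6.96, 7.80 and 8.72 in control livers (-1.71, adjusted p = 0.181). Pbsn, an androgen-regulated lipocalin known from prostate, was at 8.89, 10.88, 9.20, 7.74 and 7.82 in exposed livers and at 6.13, 8.33, 7.69, 5.39 and 8.07 in control livers (1.78, adjusted p = 0.359).

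The day 7 response was then compared with that of day 1, each against controls of its own day. At day 1, 7164 probe sets (46.2%) passed the adjusted threshold. The 2 responses differed at an adjusted p of 0.05 or less for 3879 probe sets (25%), 1640 higher (10.6%) and 2239 lower (14.4%) at day 7. Cxcl1 had the greatest contrast among the genes named: its difference was -2.27 at day 7 and 2.92 at day 1, and these differed by -5.19 ± 0.55 (SE; adjusted p = 1.1e-06). Ddc, which makes dopamine and serotonin from their precursors, had a difference of -0.03 at day 7 and -1.99 at day 1 (adjusted p for the difference = 4.8e-09), and Pcca, a subunit of propionyl-CoA carboxylase, 0.15 and -1.15. Coq10a and the sulfate transporter gene Slc13a4 likewise had day 7 differences near 0. For G2 and mitosis genes 26 of 28 had a higher difference at day 7 than at day 1, where their median was -0.68. The controls of the 2 days differed on this list. In mean deviation from the day 7 controls, Cr controls lay at 1.67 to 2.03 on day 1 and -0.80 to 0.84 on day 7. Exposed livers lay at 0.31 to 1.77 on day 1 and 0.46 to 1.53 on day 7. Ribosome biogenesis genes had a median of 0.14 at day 7 and 0.88 at day 1, and 36 of 43 were lower at day 7 by this test.

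Day 3 and day 7 could seldom be told apart. At day 3 no probe set passed the adjusted threshold in limma, and 1336 (8.61%) had an unadjusted p of 0.05 or less. The responses differed for 2 probe sets (0.0129%). These were Hhex, with -1.01 at day 7 and a difference from day 3 of -1.59 (adjusted p = 0.013), and Irf2bpl, named after its value was seen (-0.64 at day 7, adjusted p of the difference = 0.049). The metallothionein difference of Mt2A was 1.77 at day 7, 0.32 at day 3 and 2.02 at day 1, and the day 7 difference was not told apart from either (adjusted p = 0.647 and 0.816).

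The Cd livers of day 7, compared with saline controls of their own, gave no probe set past the adjusted threshold in limma and 1281 (8.25%) at an unadjusted p. The Cr and Cd responses of day 7 differed for 113 probe sets (0.728%), 67 higher (0.432%) and 46 lower (0.296%) in Cr. Cish differed by -3.69 ± 0.69 (SE; adjusted p = 0.0032), being -2.21 after Cr and 1.48 after Cd. Ddit4 (2.06), Dusp6 on a second probe set (-1.89), Zfp821 (-0.93) and Hhex (-1.48) also differed, as did 22 of the 28 G2 and mitosis genes, all higher in Cr. The Mt2A difference was 1.77 after Cr and 1.89 after Cd, where 1 liver was at 13.09 and the 4 others were between 8.38 and 10.43. Without that liver the Cd difference was 1.13. The 2 metals have separate controls, and control groups differed for many of these genes, as the plot of levels in all groups shows.

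**Figure D5:**
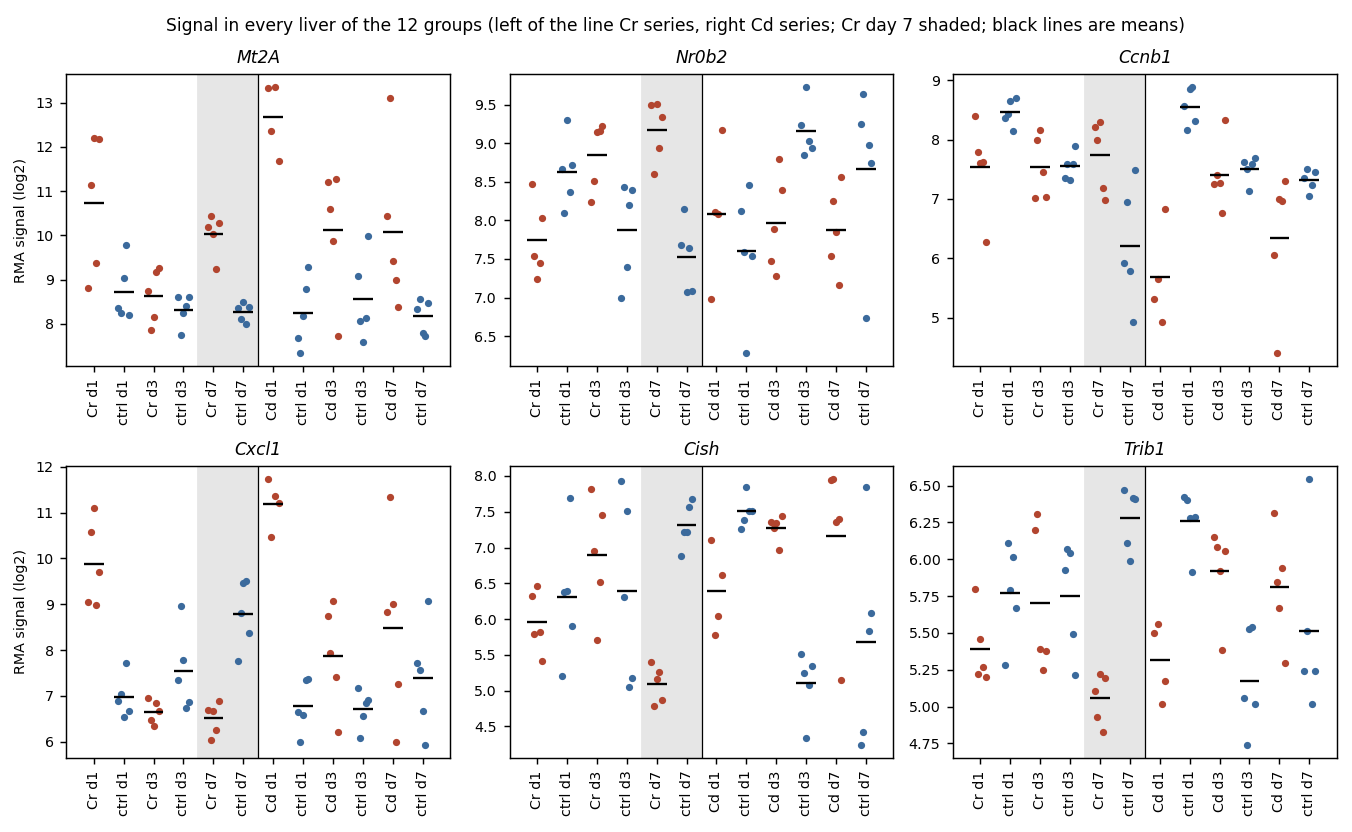
Log2 signal of Mt2A, Nr0b2, Ccnb1, Cxcl1, Cish and Trib1 in every liver of the 12 groups, exposed left of its control within each metal and day. Mt2A of the Cr day 7 livers (9.24 to 10.45) is above its controls of the day (7.997 to 8.50), whereas Ccnb1 of the day 7 Cr controls averages 6.21, below the 7.32 to 8.55 of the other control groups.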

How the data were processed

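Liver RNA of 59 rats was measured on Affymetrix rat genome arrays, 1 array per liver. The authors adjusted background, normalised and summarised the arrays by RMA in Partek Genomic Suite, and the deposited values are log2 signals per probe set. RMA draws all arrays to 1 distribution, so a shift common to most genes would not be seen. Array data hold no read depth, and the 5 livers per group limit the precision. The table had 31099 probe sets, of which 57 array controls were left out. Platform annotation gave 1 gene symbol for 20826 probe sets, several for 436 and none for 9780.

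As a stand-in for detection calls, each probe set was scored by its dimmest array in whichever Cr group made that value highest, and the top 15521 of 31042 were tested. The 30 Cr arrays were fitted in limma 3.58.1 (R 4.3.3) with 1 mean for each of 6 groups. The contrast used only the day 7 livers, with moderated variances and Benjamini-Hochberg adjustment over all probe sets tested. Differences from day 1 and day 3 were contrasts of the same fit, and the difference from Cd day 7 came from a fit of all 59 arrays with 12 group means. The scripts were tested on simulated data. The study itself used pooled controls, here an alternative.

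Genes are represented in lists by their brightest probe set with 1 symbol. Named genes were those past the adjusted p and 1.8-fold (up to 15 a direction, filled by unadjusted p), up to 4 per pathway list by p, the study's own day 7 genes, metallothioneins, and the 5 with the smallest p in each difference; further list members were named after their values were seen. Members and lists were chosen with earlier results of these data known. Alternatives were other sets of controls or arrays, other filters, quantile normalisation again, no moderation, array weights, replicate blocks and leaving out each liver. Averaging exposed livers 1 and 3, and recounting the lists without single livers, were chosen after seeing the data. Promoter windows came from RefSeq (GRCr8), and motifs were searched on both strands. Overlapping matches were counted, and a stretch that matched on both strands was counted once.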

Additional observations from a re-analysis of the deposited data

Results flagged for a closer look

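In 264 groups of 5 values examined, 22 (8.33%) held a liver far from the other 4 of its group by Dixon's test, which chance gives in about 1 of 20. Among genes named, the livers apart in the exposed group were liver 2 for Fabp4 (9.907), Col3a1 (12.67) and RT1-CE12 (11.56), liver 4 for the shared Mt1f, Ttr and Mt1 probe set (11.08), and liver 5 for Hes1 (9.117) and Sybu (6.408). In the control group they were liver 1 for Ddit4 (7.438) and Gadd45g (8.715), liver 3 for RT1-CE12 (9.422), Ltc4s (7.637), Cyp4a3 (9.159) and Rig1 (9.476), and liver 4 for Dnajb9 (9.629).

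By mean deviation of whole lists, exposed liver 2 stood apart for fat cell markers (1.76), bile duct markers (1.2), extracellular matrix (1.5) and stellate cell markers (1.98). Exposed liver 3 did so for heat shock proteins (0.145) and liver endothelial markers (-0.488). Exposed liver 4 did so for the unfolded protein response (0.187) and NRF2 genes (-0.0958), and exposed liver 5 for cytochromes P450 (0.12). The fat cell and bile duct values rest on 3 and 2 genes. Of these, 2 and 1 were above the highest control liver in exposed liver 2.

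The Cr day 7 response differed from that of Cr day 1 for 3879 probe sets, from Cr day 3 for 2 and from Cd day 7 for 113, at an adjusted p of 0.05 or less in limma. Day 7 minus day 1, the named differences were 1.96 for Ddc, 1.29 for Pcca, 1.47 for Coq10a, -5.19 for Cxcl1 and 1.38 for Slc13a4. Day 7 minus Cd day 7, they were -1.89 for Dusp6, -3.69 for Cish, 2.06 for Ddit4, -0.93 for Zfp821 and -1.48 for Hhex. Hhex also differed from day 3 (-1.59). Of the G2 and mitosis genes, 26 had a higher difference at day 7 than at Cr day 1 and 22 a higher one than at Cd day 7. The Cr controls of days 1 and 7 differed in level on these genes.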

How the results depend on the processing

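Of the 21 probe sets past the adjusted p and 1.8-fold, all kept an unadjusted p of 0.05 or less in every alternative except a filter on mean signal and the Cr and Cd controls together, where 20 did. With the 15 Cr controls pooled, 0 probe sets passed at an adjusted p with or without the fold in limma (979 at an unadjusted p) and 16 at an unadjusted p with the fold, and with the Cr and Cd controls together 4 and 49 passed with the fold. Array weights gave 71 with the fold and 287 at any fold, only the 10 day 7 arrays 77 at any fold, and no moderation 21 at any fold. With exposed livers 1 and 3 averaged, 13 and 17 passed at an adjusted p with and without the fold, and the differences from day 3 and Cd day 7 came to 1 and 55. Leaving out each liver gave 11 (without control liver 2) to 58 (without exposed liver 5) with the adjusted p and fold, 14 (without exposed liver 3) to 108 (without exposed liver 5) at any fold, and 84 to 140 at an unadjusted p with the fold. Without control liver 5 the first count was 49, without exposed liver 1 or control liver 4 it was 13, without exposed liver 3 it was 12 and without exposed liver 4 it was 33. The differences from day 1, day 3 and Cd day 7 then ranged over 3445 to 3853, 1 to 4 and 50 to 158. Nr0b2, Ddit4, Cxcl1, Trib1 and Hhex passed the adjusted threshold without any 1 of the 10 livers, whereas Hes1, Cish and Ier3 lost it in 6 of 10 such fits, Adam11 in 5, Nr1d2 in 3, Irx1 in 1 and Gadd45a in 9 (adjusted p up to 0.175). Direction turned only for genes near 0: Ddc (0.0048) and Slc13a4 (0.0261) with the Cr and Cd controls together, and Ddc without exposed liver 2 (0.0237) or control liver 5 (0.0454), within a range of -0.071 to 0.0454 over livers left out. Replicate numbers did not pair the samples, since deviations of same-numbered livers correlated between -0.105 and 0.179; a replicate block gave 20, 112 and 45 calls and 4073, 0 and 117 differences. The cause of these shifts was not tested.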

Other observations

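Genes of the class I major histocompatibility complex were uneven among livers of 1 group. RT1-A, which encodes a classical antigen-presenting molecule, was at 4.26, 7.78, 5.36, 4.67 and 7.38 in exposed livers and between 7.06 and 7.49 in control livers. RT1-CE12 was at 11.56 in exposed liver 2 and between 8.91 and 9.40 in the 4 other exposed livers, whereas in control livers it was at 9.42 in liver 3 and between 11.20 and 11.79 in the 4 others. Neither gene passed the adjusted threshold in limma (adjusted p = 0.401 and 0.303). Ltc4s, leukotriene C4 synthase, was at 7.05, 8.35, 7.27, 9.16 and 7.19 in exposed livers, against 9.29, 9.58, 7.64, 9.54 and 9.93 in control livers, with control liver 3 again apart (adjusted p = 0.162).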
